A study of Mus musculus with 4 samples.

Results

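Transcripts of 4 proprotein convertase genes, Pcsk6, Pcsk5, Furin and Pcsk7, were counted by gene symbol among the 32285 genes of a single-cell RNA sequencing study of the mouse ovary. The members were chosen by the measured level of Pcsk6 in granulosa-like cells, which was lower in the libraries from AMH-treated mice, and the other 3 were taken with it as enzymes of the same family. That difference is therefore given below as a description, and it supports nothing by itself. AMH is anti-Müllerian hormone, a TGF-beta family hormone made by granulosa cells of growing follicles, and doxorubicin is an anthracycline chemotherapy drug.

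The study held 4 libraries, each from 1 ovary of each of 5 mice, pooled by group. The control mice received PBS and saline. The doxorubicin group received the drug at 3 mg/kg, the AMH group recombinant human AMH at 0.75 mg/kg, and the doxorubicin+AMH group both agents at those doses. Treatment began on postnatal day 25 with 2 doses of doxorubicin a week apart, and tissue was collected 4 hours after the final one. The strain, the route and the schedule of AMH are not given in the sources used here. Because each group is a single library, nothing between groups can be tested: every ratio below compares 2 libraries, and its 95% interval covers counting error only, not the spread between animals.

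The libraries held 7141 to 9478 cells and 138647495 to 178279122 UMIs, molecular tags that count each captured transcript once. Filtering left 6045 to 7976 cells per library in 33 clusters, which fell into 12 classes named by marker genes and written here as "X-like". The granulosa-like class held 2148 cells in the control, 2122 in the doxorubicin, 2313 in the doxorubicin+AMH and 3038 in the AMH library, and all 6 of its markers had UMIs in every library. Pairs of libraries shared 11 to 24 cell barcodes, at most 0.281% of the smaller library. Levels are UMIs per 1000000 UMIs of the class in that library (CPM), and where 4 values stand together they are ordered as control, doxorubicin, doxorubicin+AMH, AMH. A 3′ assay captures different genes with different efficiency, so levels are compared for 1 gene between cells or libraries, never between genes.

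Proprotein convertases are serine proteases of the secretory pathway that cut inactive precursors after pairs or clusters of basic residues, and so release growth factors, receptors and metalloproteases in their mature form. Furin cycles between the trans-Golgi network and the cell surface, PCSK7 is membrane-bound, PCSK5 exists in soluble and membrane-bound forms, and PCSK6, also called PACE4, is secreted and bound to the cell surface and matrix by heparan sulfate. Their substrates include the precursors of AMH itself, inhibin and activin subunits and bone morphogenetic proteins. In the ovary these factors pass between the oocyte, the granulosa cells around it and the theca cells outside.

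In the GRCm38 annotation (GENCODE M21) Pcsk6 lies on chr7:65861734-66050386 on the plus strand, Furin on chr7:80388585-80405436 on the minus strand, Pcsk7 on chr9:45906497-45929726 on the plus strand and Pcsk5 on chr19:17432319-17837632 on the minus strand. The submitters' processing notes name mm10, the same assembly, and 32158 of the 32285 gene IDs (99.6%) were found in that annotation. AMH signals through SMAD proteins, so the 250 bases before each RefSeq start (build GRCm38.p6) were searched on both strands for GGCGCC, a GC-rich SMAD element that reads the same on both strands, and for the SMAD box GTCT. The promoters of Pcsk6, whose level differed with AMH in granulosa-like cells, and of Pcsk5, whose level there did not differ by 2-fold, are shown 5′ to 3′ with GGCGCC in capitals.
Pcsk6, chr7:65861886-65862135, plus strand: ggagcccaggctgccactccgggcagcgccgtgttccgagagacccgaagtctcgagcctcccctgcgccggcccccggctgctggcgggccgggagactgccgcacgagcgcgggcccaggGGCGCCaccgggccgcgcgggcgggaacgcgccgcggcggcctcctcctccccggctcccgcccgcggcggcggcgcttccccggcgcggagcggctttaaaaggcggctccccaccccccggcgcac
Pcsk5, chr19:17837633-17837882, minus strand: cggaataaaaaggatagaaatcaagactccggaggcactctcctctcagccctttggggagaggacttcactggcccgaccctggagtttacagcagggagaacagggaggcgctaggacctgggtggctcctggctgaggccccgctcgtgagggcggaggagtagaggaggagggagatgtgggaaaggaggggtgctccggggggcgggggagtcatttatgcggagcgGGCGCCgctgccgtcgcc

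The Pcsk6 window held GGCGCC once, 128 bases before the start, and the Pcsk5 window held it once, 18 bases before the start. Pcsk7 also held it once, and of 2 Furin windows 1 held it 2 times and the other did not hold it. All 4 genes thus had the letters in at least 1 window, whatever their level did in the AMH libraries. GGCGCC was present in 9.59% of all 32851 windows of this length and GTCT in 82.9%, and GTCT was found 3 times before Pcsk6, 1 time before Pcsk5, 3 and 1 times in the 2 Furin windows and not before Pcsk7. GC content was 81.2% for Pcsk6, 80.0% for Pcsk7, 64.0% for Pcsk5, and 50.4% and 83.2% for the Furin windows. The annotated gene start of Pcsk6 in GENCODE lies upstream of the RefSeq start used here. A match to these letters is not evidence of a binding site.

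The genes differed in where they were found. Lymphatic endothelial-like cells held the highest Pcsk6 level of the 12 classes, at 422.6 CPM in the control, 390.7 CPM with doxorubicin, 382.5 CPM with both agents and 472.6 CPM with AMH (225 cells over the 4 libraries). These 4 values lay far above every other class, and none was lower with AMH than without by more than counting error. Granulosa-like cells came next with a median of 42.2 CPM over the libraries. Surface epithelial-, stroma-, theca- and mural smooth muscle-like cells followed with medians of 22.6, 19.2, 18.1 and 11.8 CPM. The ranges of granulosa-, surface epithelial-, stroma- and theca-like cells overlapped from each class to the next, and the mural range lay below the theca range. Blood endothelial-like cells, the other vessel lining, held 6.37 to 7.57 CPM and macrophage-like cells 0.599 to 2.55 CPM.

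After thinning each cell to 2000 UMIs, 42.0% to 57.1% of lymphatic endothelial-like cells kept a Pcsk6 UMI (70.5% to 87.0% unthinned). No cell of the T or NK lymphocyte- and B lymphocyte-like classes did so in any library, with upper 95% Clopper-Pearson limits of 1.98% and 2.91% over the 4 libraries at that depth. Unthinned, 2.53% and 1.55% of them held a Pcsk6 UMI, against 3.85% of erythroid-like cells. Erythroid-like cells held 1 to 5 Pcsk6 UMIs per library, or 2.59 to 21.7 CPM, and 0.524% of them kept a UMI after thinning over the 4 libraries. With 13 Pcsk6 UMIs in erythroid-like and 19 in T or NK lymphocyte-like cells in all, the CPM of these small classes is too imprecise to place them in the order.

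Pcsk5 was spread over the mesenchymal and steroidogenic cells. Theca-like cells, which make androgens, held 313 to 577 CPM, mural smooth muscle-like cells 289 to 401 CPM and stroma-like cells 322 to 427 CPM, ranges that overlapped one another. Granulosa-like cells at 90.8 to 99.0 CPM and blood endothelial-like cells at 85.6 to 116 CPM lay below these 3 classes in every library. Lymphatic endothelial-like cells, the richest in Pcsk6, held 9.81 to 42.7 CPM of Pcsk5, from 129 UMIs over the 4 libraries (17.0, 32.8, 9.81 and 42.7 CPM). Stroma markers in this class summed to 171, 193, 39.2 and 197 CPM and mural smooth muscle markers to 82.5, 72.4, 36.0 and 420.5 CPM, lowest like Pcsk5 in doxorubicin+AMH and highest in AMH. Thinned to 2000 UMIs, 4.05%, 0%, 4.76% and 2.0% of the lymphatic endothelial-like cells kept a Pcsk5 UMI (20.5%, 17.5%, 15.2% and 16.4% unthinned). The part of other cells' RNA in these values was not tested. Surface epithelial-like cells ranged from 87.8 CPM to 340 CPM, the latter in the doxorubicin+AMH library with 39 such cells. There 38.5% of cells held a Pcsk5 UMI, against 63.1% to 75.3% in the other libraries, and 17.1% after thinning, against 16.1% to 22.1%. Erythroid markers summed to 10409 CPM in those 39 cells and to 8.66 to 19.6 CPM in the other libraries, and their part in the Pcsk5 value was not tested.

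Furin, the housekeeping convertase, was found in every class. Its levels were highest in B lymphocyte-like cells (median 83.5 CPM) and T or NK lymphocyte-like cells (median 67.8 CPM), followed by macrophage-like cells (median 50.5 CPM) and blood endothelial-like cells (median 44.1 CPM). None of the 10 leading genes of the B lymphocyte-like cluster, among them Cd74, H2-Aa and Igkc, is one of its 4 markers, though all 4 had UMIs in every library. The B markers summed to 230, 939, 539 and 367 CPM there and macrophage markers to 344, 836, 159 and 333 CPM. The lymphocyte values rest on 110 and 130 UMIs over the 4 libraries and overlapped each other. Granulosa-like cells, at 17.8 to 20.7 CPM, were below all classes but the erythroid-like. Pcsk7 was highest in mural smooth muscle-like cells (median 46.6 CPM), lymphatic endothelial-like cells (median 46.1 CPM) and blood endothelial-like cells (median 42.2 CPM), whose ranges overlapped, and lowest in erythroid-like cells, with 2 UMIs in all. T or NK lymphocyte-like cells came next to the highest classes, with a median of 41.6 CPM from 67 UMIs. Their range of 33.3 to 51.3 CPM overlapped the ranges of those classes. Oviduct epithelial-like cells are left out of these orders because the doxorubicin library held 4 of them, with oocyte markers summing to 16776 CPM.

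**Figure D1:**
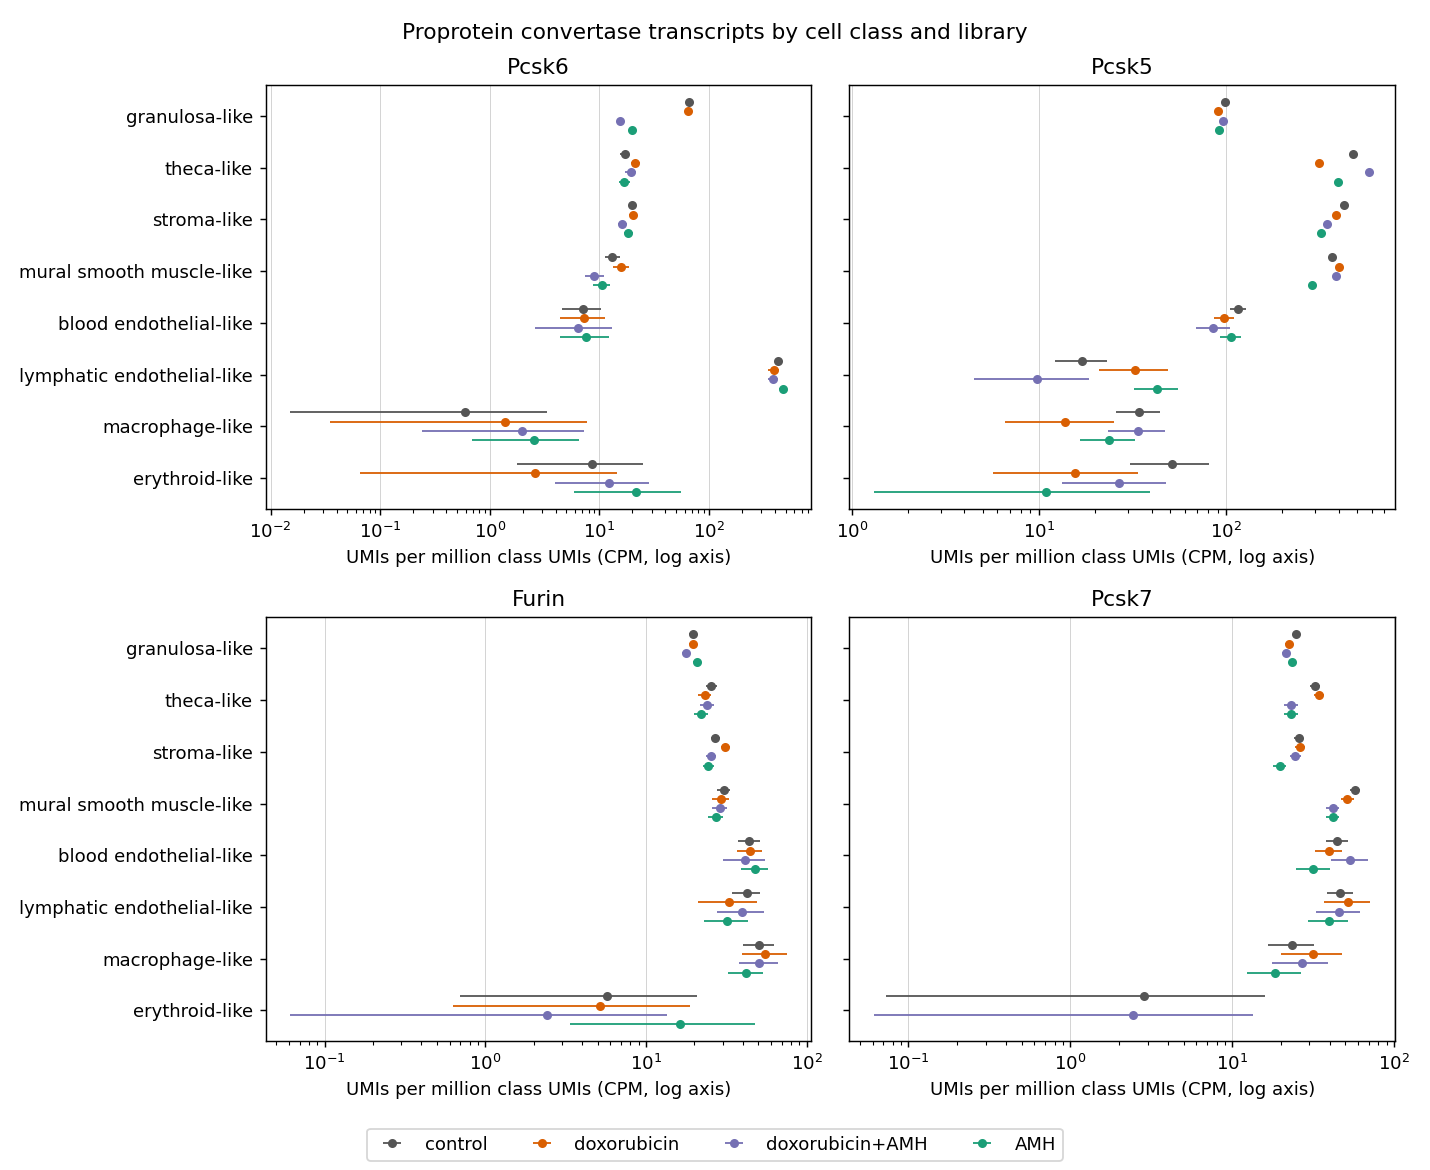
Level of each convertase gene (x axis, CPM on a log scale) in 8 cell classes (y axis) for the 4 libraries (colours); points are CPM of summed UMIs and bars exact Poisson 95% intervals, and a library with 0 UMIs has no point. Pcsk6 stands at 382.5 to 472.6 CPM in lymphatic endothelial-like cells, and in granulosa-like cells the AMH and doxorubicin+AMH points lie left of the other 2.

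Pcsk6 in granulosa-like cells was the value by which the gene was chosen. Its level was 65.8 CPM (95% interval 63.8 to 67.8, 4281 UMIs) in the control library, 64.6 CPM (62.6 to 66.6, 3970 UMIs) in the doxorubicin library, 15.3 CPM (14.3 to 16.3, 965 UMIs) in the doxorubicin+AMH library and 19.9 CPM (18.9 to 20.9, 1515 UMIs) in the AMH library. Both libraries with AMH were low and both without it were high, which is the pattern the gene was chosen by. The AMH library was 3.31-fold below the control (3.12 to 3.51, log2 ratio -1.73), and the doxorubicin+AMH library was 4.23-fold below the doxorubicin library (3.94 to 4.54, log2 ratio -2.08). These 2 ratios share no library. Doxorubicin / control was within counting error (log2 ratio -0.03, -0.09 to 0.04) but -0.10 (-0.16 to -0.036) without 2 clusters nearly confined to the doxorubicin library, while doxorubicin+AMH against AMH gave -0.38 (-0.50 to -0.26).

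Of 6617 genes whose mean in granulosa-like cells reached 20 CPM, 0.544% were at least 2-fold lower in AMH than in control and 0.71% in doxorubicin+AMH than in doxorubicin. Higher by 2-fold were 0.136% and 0.106%. Pcsk6 was the 1 convertase among those lower, of the 3 that passed the filter, and since it was chosen for this nothing follows from that count. For doxorubicin against control 0.0302% of genes were lower and 0.0151% higher by 2-fold, and for doxorubicin+AMH against AMH 0.0453% were lower and 0.0302% higher. None of the convertases was among them.

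The Pcsk6 transcripts of the class were concentrated in 1 of its 9 clusters, led by Cntn4 and Cdh12. This cluster contained 82.2% of the class's Pcsk6 UMIs in the control (95% Clopper-Pearson interval 81.0 to 83.3), 79.6% in the doxorubicin, 44.8% in the doxorubicin+AMH (41.6 to 48.0) and 58.7% in the AMH library (56.2 to 61.2). It made up 22.8%, 21.7%, 7.93% and 9.74% of the class's UMIs in the same order, from 377, 318, 162 and 258 cells. Its other leading genes include Slc18a2, which encodes a vesicular monoamine transporter, and Amh, and both differed between the libraries within it (log2 AMH / control -2.55 and -0.98), so the number of cells assigned to it is not compared between libraries. All 6 granulosa markers had UMIs in it in every library.

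Inside this cluster Pcsk6 was at 237 CPM in the control and 237 CPM in the doxorubicin library, against 86.3 CPM with doxorubicin+AMH and 120 CPM with AMH. The 2 libraries without AMH were level and the 2 with AMH were lower, the doxorubicin+AMH library most. The log2 ratio was -0.99 for AMH / control (-1.09 to -0.88) and -1.46 for doxorubicin+AMH / doxorubicin (-1.60 to -1.31), smaller than in the whole class. In the same cluster 2.14% of 6720 genes were at least 2-fold lower in AMH than in control, without Pcsk6, which was 1.98-fold lower, and 1.8% in doxorubicin+AMH than in doxorubicin, with it. Thinned to 2000 UMIs, 31.6% of its cells in the control and 31.6% in the doxorubicin library kept a Pcsk6 UMI, against 14.4% with doxorubicin+AMH and 20.7% with AMH (83.0%, 84.3%, 64.2% and 67.4% unthinned). In the whole class the thinned shares were 7.65%, 9.34%, 2.89% and 3.81% (28.6%, 30.8%, 19.1% and 18.8% unthinned), all above the 0.524% of erythroid-like cells.

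Outside this cluster the class held 15.2, 16.8, 9.16 and 9.09 CPM in the 4 libraries. The doxorubicin value includes 2 clusters found almost only in that library, described below, and without them as well the values were 15.2, 10.6, 9.16 and 9.07 CPM. The log2 ratios were then -0.74 (-0.90 to -0.59) for AMH / control and -0.21 (-0.39 to -0.033) for doxorubicin+AMH / doxorubicin, and doxorubicin / control was -0.51 (-0.68 to -0.35). Outside these clusters, then, the control stood highest and the doxorubicin library lay nearer to the AMH libraries than to the control. The cluster led by Inhbb and Inhba held 13.7, 9.90, 9.73 and 8.95 CPM, with log2 ratios of -0.61 (-0.91 to -0.32) for AMH / control and -0.03 (-0.34 to 0.29) for doxorubicin+AMH / doxorubicin. There the control alone stood above the other 3 libraries. The cluster led by Fshr and Fst, the genes of the FSH receptor and follistatin, held 5.63, 6.71, 5.87 and 4.02 CPM, with ratios of -0.49 (-1.15 to 0.16) and -0.19 (-0.74 to 0.35). The lower level with AMH thus did not exceed counting error in every cluster of the class.

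When each of the 7 clusters with at least 30 cells in every library was given the weight it had in the control, Pcsk6 came to 65.8, 62.4, 26.7 and 33.9 CPM. The log2 ratios were then -0.96 and -1.22. With the control's cluster weights applied to every library, the libraries with AMH were thus still the low ones, by less. A further 2 granulosa-like clusters were almost confined to the doxorubicin library, with 177 and 77 cells there and at most 2 in any other. They held 168.8 and 141.9 CPM of Pcsk6, and the former also had Cntn4 and Cdh12 among its leading genes. Leaving both out while keeping the Cntn4 and Cdh12 cluster gave -1.73 and -2.01.

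Markers of other cells in the Cntn4 and Cdh12 cluster were as follows. The 5 lymphatic endothelial markers, which mark the cells richest in Pcsk6, summed to 21.0, 11.4, 8.99 and 8.61 CPM, against 5448 to 7280 CPM in lymphatic endothelial-like cells. The 5 oocyte markers summed to 44.9, 9.89, 2.20 and 5.79 CPM, highest in the control. The 7 theca markers summed to 633, 560, 307 and 359 CPM and were lower in both AMH libraries. The 5 erythroid markers summed to 37.1, 13.2, 145 and 9.55 CPM, and the 6 stroma markers to 52.3 to 97.9 CPM. The 6 mural smooth muscle markers summed to 34.7, 35.6, 65.5 and 60.3 CPM and were higher in both AMH libraries, and the granulosa markers to 2150, 2011, 1866 and 1547 CPM, lower in both. Median depth was 20562 to 30221 UMIs per cell. The part of any of these in the Pcsk6 difference was not tested.

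**Figure D2:**
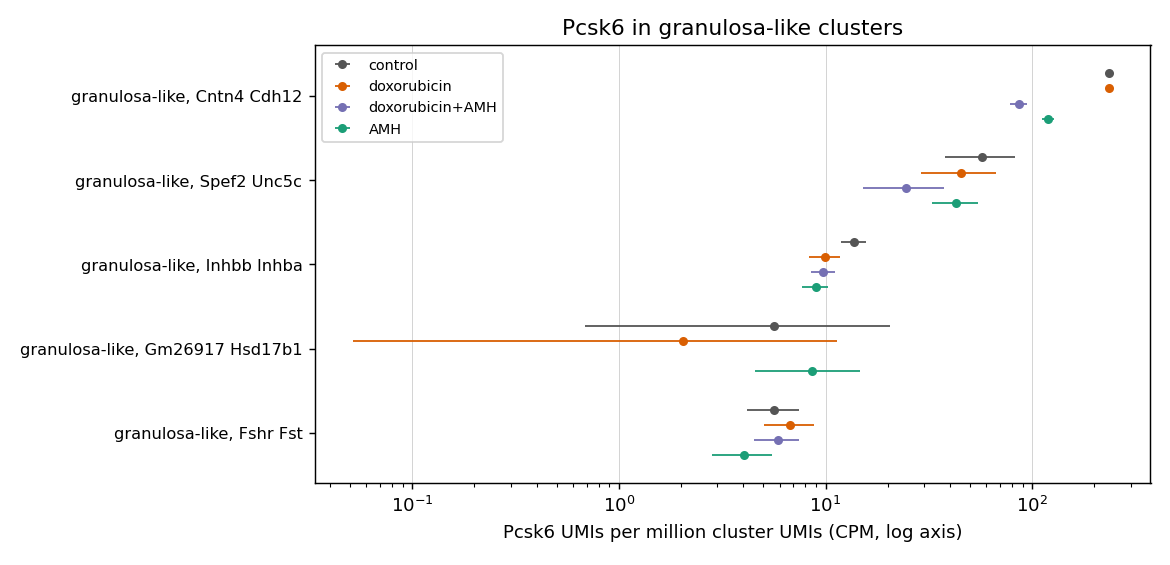
Pcsk6 level (x axis, CPM on a log scale) in 5 of the 7 granulosa-like clusters with at least 30 cells in every library (y axis, each named by its 2 leading genes); points are libraries and bars exact Poisson 95% intervals. The Cntn4 and Cdh12 cluster stands highest, at 237 CPM without AMH and 86.3 and 120 CPM with it, and a library with 0 UMIs has no point.

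In mural smooth muscle-, stroma- and theca-like cells the Pcsk6 ratios for AMH lay closer to 0 than in granulosa-like cells. Mural smooth muscle-like cells held 13.2, 15.7, 8.99 and 10.5 CPM, with log2 ratios of -0.33 (-0.67 to 0.00) for AMH / control and -0.80 (-1.19 to -0.43) for doxorubicin+AMH / doxorubicin. Both libraries with AMH were lower, the first pair within counting error. Stroma-like cells gave -0.11 (-0.29 to 0.06) and -0.33 (-0.51 to -0.15), and theca-like cells -0.01 (-0.23 to 0.21) and -0.15 (-0.37 to 0.07). The theca-like values moved with the settings: AMH / control was -0.48 with each cell weighted equally, and doxorubicin+AMH / doxorubicin was -0.48 with a per-cell marker gate and 0.43 with clusters weighted as in the control. Within stroma, Pcsk6 was concentrated in the clusters led by Penk and Frem1 (45.6, 56.6, 31.2 and 42.2 CPM) and by Rbp4 and Mfap5 (39.4, 36.0, 27.7 and 33.2 CPM), and the other 4 compared stroma-like clusters held under 10 CPM. In lymphatic endothelial-like cells the ratios were 0.16 (0.01 to 0.31) and -0.03 (-0.26 to 0.20), so the class with the most Pcsk6 did not have the lower level with AMH seen in granulosa-like cells. The difference between these classes has no test with 1 library per group. Smaller classes gave ratios of either sign. Oviduct epithelial-like cells held 83 Pcsk6 UMIs in AMH and 19 in control (11.8 and 4.35 CPM, log2 ratio 1.44, 0.70 to 2.24), and T or NK lymphocyte-like cells 12 and 1 (28.6 and 1.90 CPM). Surface epithelial-like cells gave 0.46 (-0.11 to 1.02) for AMH / control and -1.28 (-2.77 to -0.088) for doxorubicin+AMH / doxorubicin, the latter from 6 and 75 UMIs. In T or NK lymphocyte-like cells stroma markers summed to 85.6, 81.4, 58.9 and 779 CPM and theca markers to 365, 2136, 273 and 1455 CPM, both higher in AMH than in control. Lymphatic endothelial markers were at 41.1 CPM in AMH and 12.8 in control in oviduct epithelial-like cells, and at 25.3 CPM in doxorubicin+AMH and 62.2 in doxorubicin in surface epithelial-like cells. The part of other cells' RNA in these ratios was not tested.

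**Figure D3:**
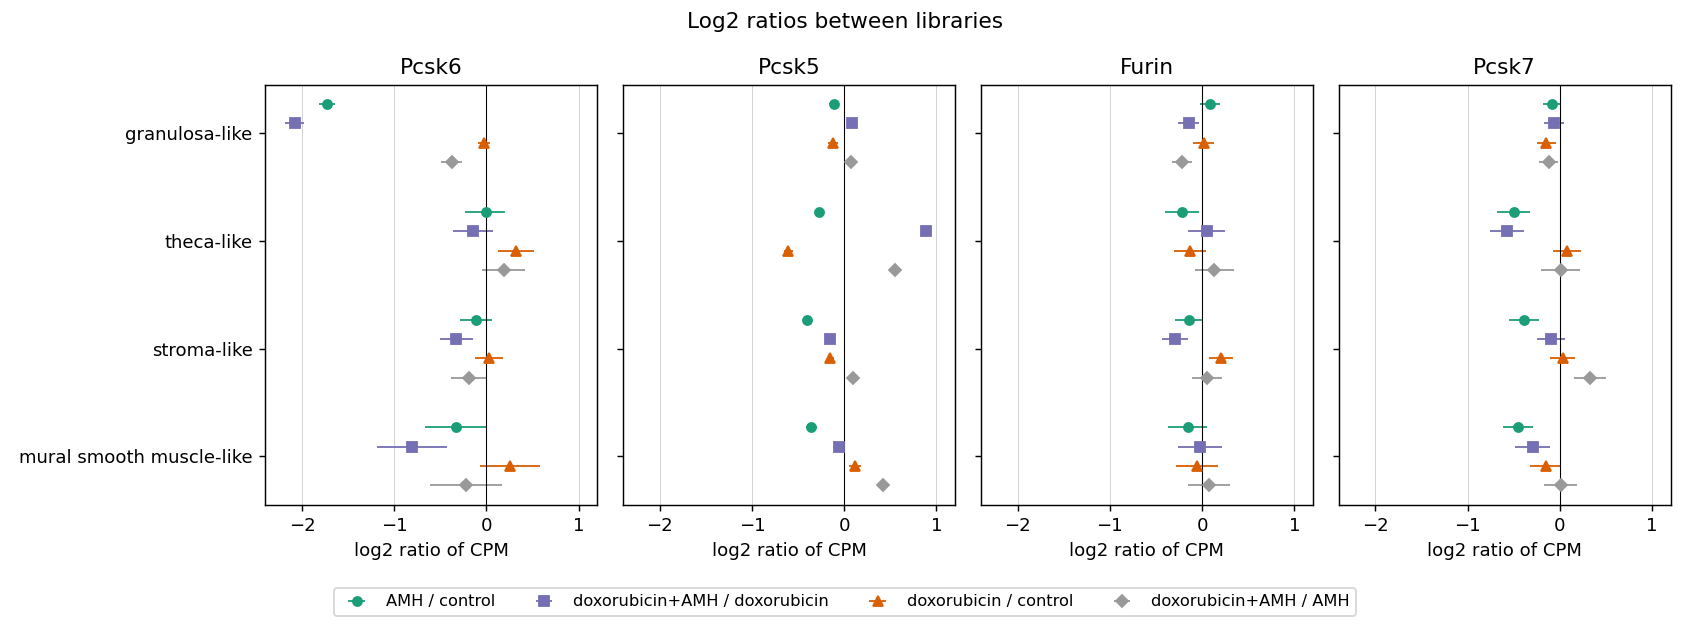
Log2 ratios of CPM between libraries (x axis) for each convertase gene (panels) in 4 cell classes (y axis); symbols are the 4 contrasts and bars exact conditional 95% intervals for counting error. Pcsk6 in granulosa-like cells is at -1.73 and -2.08 for the AMH contrasts, Pcsk6 in mural smooth muscle-like cells at -0.80 for doxorubicin+AMH / doxorubicin, and Pcsk5 in theca-like cells from -0.61 to 0.88.

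Pcsk5 in granulosa-like cells was at 99.0 CPM in the control, 90.8 in the doxorubicin, 96.1 in the doxorubicin+AMH and 91.5 in the AMH library. The 4 values were nearly level and did not order by AMH, and the signs of the small ratios turned under other settings (0.048 for AMH / control with each cell weighted equally, -0.034 for the other without the Cntn4 and Cdh12 cluster). Log2 ratios were -0.11 (-0.16 to -0.06) for AMH / control and 0.08 (0.03 to 0.13) for doxorubicin+AMH / doxorubicin. Pcsk7 was at 24.8, 22.4, 21.5 and 23.4 CPM, with ratios of -0.08 (-0.18 to 0.01) and -0.06 (-0.17 to 0.05). Furin was at 19.5, 19.7, 17.8 and 20.7 CPM, just under the filter of 20 CPM, with ratios of 0.09 (-0.02 to 0.20) and -0.15 (-0.26 to -0.03). For these 3 genes the counting-error intervals lay well within 2-fold in both AMH contrasts.

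Inside the Cntn4 and Cdh12 cluster, however, Furin was at 19.6, 20.7, 30.6 and 29.5 CPM. Both libraries with AMH were above both without it, opposite to Pcsk6 in the same cells, with log2 ratios of 0.58 (0.33 to 0.84) and 0.56 (0.27 to 0.85). The share of all genes ordered this way in the cluster was not counted. Mural smooth muscle markers were also higher there in both AMH libraries, as given above, and their part in the Furin difference was not tested. Pcsk7 there was at 23.0, 18.05, 22.4 and 25.6 CPM (0.15, -0.11 to 0.41, and 0.31, -0.03 to 0.64). Pcsk5 was at 62.2, 52.4, 60.9 and 47.8 CPM, with ratios of opposite sign (-0.38, -0.56 to -0.20, and 0.22, 0.02 to 0.41). Pcsk6 was lower in both AMH contrasts in this cluster. It was chosen for its lower level in the class to which these cells belong, so nothing follows from that.

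In theca-like cells Pcsk5 was at 476 CPM in the control, 313 in the doxorubicin, 577 in the doxorubicin+AMH and 394 in the AMH library. The doxorubicin library was lowest and the doxorubicin+AMH library highest. The ratios had opposite signs: doxorubicin / control was -0.61 (-0.65 to -0.56) and doxorubicin+AMH / AMH was 0.55 (0.51 to 0.60), while AMH / control was -0.27 (-0.32 to -0.23) and doxorubicin+AMH / doxorubicin was 0.88 (0.84 to 0.93). Smaller classes gave larger ratios, 1.27 (1.02 to 1.51) for doxorubicin+AMH / doxorubicin in surface epithelial-like cells and 3.53 (2.20 to 5.22) for AMH / control in T or NK lymphocyte-like cells, the latter from 46 and 5 UMIs and beside the marker levels given above for that class.

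The theca-like class was made of different clusters in different libraries. The cluster led by Cyp17a1 and Serpina5 held 655, 414, 57 and 59 cells, and that led by Lhcgr and Smpx held 24, 16, 518 and 688. The 7 theca markers summed to 17357 and 16694 CPM in the class without AMH and to 7120 and 6148 CPM with it. The stroma markers summed to 785, 848, 1396 and 1318 CPM there, higher in both AMH libraries. Their part in the Pcsk5 and Pcsk7 values of the class was not tested. Theca-like ratios across AMH thus set unlike cells beside each other, and with cells picked by a per-cell marker gate the AMH / control ratio came to 0.0023. The cluster led by Cyp17a1 and Sct had 131 to 156 cells in every library, and within it Pcsk5 was at 584, 292, 604 and 540 CPM. Here 3 libraries lay close together and the doxorubicin library alone was low. Its log2 ratio to the control was -1.003 (-1.11 to -0.89), and doxorubicin+AMH stood 1.05 (0.94 to 1.16) above doxorubicin, with AMH / control at -0.11 (-0.20 to -0.03). Other settings moved the first of these between -1.22 (a minimum of 500 UMIs per cell) and -0.60 (a mitochondrial limit of 10%), and the second between 0.88 and 1.25.

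In the Cyp17a1 and Serpina5 cluster the doxorubicin library was also below the control, at 314 against 454 CPM (-0.53, -0.58 to -0.48), but the AMH library was as low, at 339 CPM, and doxorubicin+AMH stood at 708 CPM. Cells of the AMH libraries were few there. Pcsk5 in stroma-like cells was at 427, 385, 345 and 322 CPM, and its ratios were -0.41 (-0.45 to -0.37) and -0.16 (-0.20 to -0.12) for the AMH contrasts. Mural smooth muscle markers in that class summed to 693, 637, 1049 and 967 CPM, higher in both AMH libraries. Their part in the Pcsk5 and Pcsk7 values of the class was not tested. In 3 stroma-like clusters, led by Rbp4 and Mfap5, by Penk and Frem1, and by Clec3b and Dpt, both libraries with AMH were below both without it. The share of all genes ordered this way in these clusters was not counted. In the cluster led by Enpep and Depdc1a the doxorubicin library alone was low, at 202 CPM against 310 in control, 305 in doxorubicin+AMH and 280 in AMH (doxorubicin / control -0.61, -0.73 to -0.50). The doxorubicin library was also the lowest in the Cyp17a1 and Sct cluster, but this is the same library and not an independent sample.

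Mural smooth muscle-like cells held 370, 401, 387 and 289 CPM of Pcsk5, with the AMH library lowest. In its largest cluster, led by Actg2 and Myh11, the level was 469, 441, 423 and 353 CPM. In blood endothelial-like cells the AMH ratios were -0.13 (-0.36 to 0.10) and -0.19 (-0.55 to 0.15), within counting error. In lymphatic endothelial-like cells they had opposite signs, 1.33 (0.72 to 1.95) and -1.74 (-3.03 to -0.59), at low levels and beside the stroma and mural marker levels given above.

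**Figure D4:**
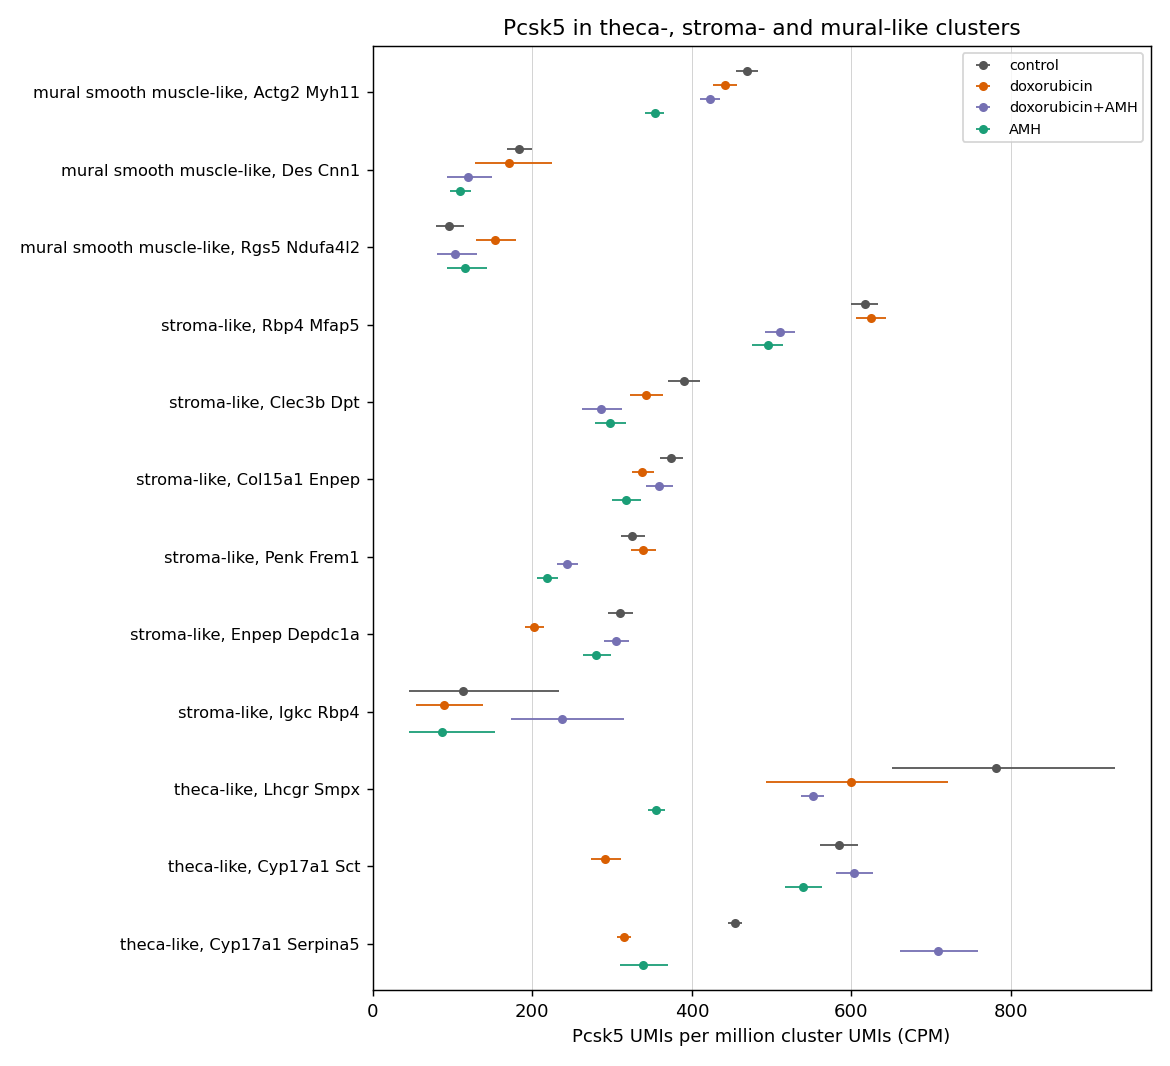
Pcsk5 level (x axis, CPM, from 0) in 12 of the 13 theca-, stroma- and mural smooth muscle-like clusters with at least 15 cells in every library (y axis, named by class and 2 leading genes); points are libraries and bars exact Poisson 95% intervals. In the clusters led by Cyp17a1 and Sct and by Enpep and Depdc1a the doxorubicin library (292 and 202 CPM) lies below the other 3.

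Pcsk7 summed over clustered classes was lower in both AMH libraries in mural smooth muscle-, theca- and stroma-like cells. This was the commoner direction among all genes passing the filter. In AMH against control 4536 of 6596, 3748 of 6256 and 4647 of 6674 genes were lower in these classes. In doxorubicin+AMH against doxorubicin 4167, 3531 and 3910 were lower. Mural smooth muscle-like cells held 57.1, 51.3, 41.9 and 41.6 CPM, with log2 ratios of -0.46 (-0.62 to -0.29) and -0.29 (-0.48 to -0.11). Theca-like cells held 32.6, 34.4, 23.1 and 23.0 CPM, with ratios of -0.50 (-0.68 to -0.33) and -0.57 (-0.76 to -0.38). In both classes the 2 libraries with AMH were nearly equal and below the other 2. Stroma-like cells held 25.7, 26.2, 24.6 and 19.6 CPM, with ratios of -0.39 (-0.55 to -0.23) and -0.096 (-0.25 to 0.052), the second within counting error. The mural values moved with the choice of cells: with a per-cell marker gate (352, 145, 195 and 340 cells) the ratios were -0.022 and -0.069. The mural cluster led by Des and Cnn1 held 202, 21, 58 and 183 cells with 31.0, 46.1, 14.3 and 37.1 CPM, and that led by Actg2 and Myh11 held 67.8, 55.4, 44.1 and 41.9 CPM. With clusters weighted as in the control the theca-like ratios were -0.18 and -0.93. Within the Cyp17a1 and Sct cluster, however, the 4 values were 24.0, 27.2, 22.8 and 23.9 CPM, close to level. Pcsk7 shares 415 bases with Rnf214, a gene on the other strand, which was at 50.4, 51.0, 44.5 and 43.1 CPM in mural smooth muscle-like cells, also lower in both AMH libraries, and at 34.0, 31.2, 30.3 and 36.1 CPM in theca-like cells. It shares 108 bases with Tagln, a smooth muscle gene also on the other strand, which was at 3795 to 4388 CPM in mural smooth muscle-like cells and 9.18 to 17.1 CPM in theca-like cells. Whether strand was used in counting is not given in the sources used here, so the part of Rnf214 or Tagln reads in the Pcsk7 levels was not tested.

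In granulosa-, theca-, stroma- and mural smooth muscle-like cells Furin differed little across libraries. In stroma-like cells it was at 27.0, 31.2, 25.4 and 24.4 CPM, with ratios of 0.21 (0.08 to 0.34) for doxorubicin / control and -0.30 (-0.44 to -0.15) for doxorubicin+AMH / doxorubicin. The doxorubicin library was the highest by a small margin. In theca- and mural smooth muscle-like cells no ratio went beyond -0.21. In T or NK lymphocyte-like cells it was at 66.5, 66.1, 124.9 and 69.1 CPM, with doxorubicin+AMH / doxorubicin at 0.92 (0.023 to 1.92, from 53 and 13 UMIs). Erythroid markers in that class summed to 38.0, 51651, 30.6 and 11.9 CPM and its own markers to 2643, 2090, 3366 and 1562 CPM, and the part of these in the Furin ratio was not tested. In B lymphocyte-like cells it was at 90.4, 102.8, 54.2 and 76.6 CPM, with that ratio at -0.92 (-2.06 to 0.21, from 15 and 15 UMIs).

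Of the 5 other convertase genes, the site-1 protease gene Mbtps1, which activates membrane-bound transcription factors, passed the 20 CPM filter in granulosa-like cells, at 66.1, 62.1, 60.2 and 58.3 CPM, with ratios of -0.18 and -0.04. Pcsk2 was at 2.71 to 3.33 CPM and Pcsk4 at 0.511 to 1.12 CPM, and Pcsk1 had 1 UMI. These 3 were thus near or under 3 CPM in granulosa-like cells. Of 8 genes for helpers and inhibitors, 4 passed and none differed by 2-fold. Those were Pacs1, which sorts furin to the trans-Golgi network (-0.33 and -0.20), Flna, which tethers it (0.16 and -0.27), and the carboxypeptidases Cpd (-0.27 and -0.24) and Cpe (0.34 and -0.09), which trim the basic residues left by convertase cuts.

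Precursors of the TGF-beta family are cut by convertases. Of 18 such genes, 9 passed the filter in granulosa-like cells. In each AMH contrast 1 was at least 2-fold lower and none higher, against 0.544% and 0.71% of all genes lower and 0.136% and 0.106% higher, with list medians of 0.15 and 0.16 against -0.07 and -0.04 for all genes passing. The lower gene was Amh itself, at 138, 198, 70.4 and 44.4 CPM (ratios -1.64 and -1.49). Like Pcsk6 it was low in both libraries of AMH-treated mice. Unlike Pcsk6 it was higher in doxorubicin than in control, by 0.51 on the log2 scale. That value includes the clusters nearly confined to that library, 1 of them led by Amh and Tmem171, and without them it was 0.42 (0.38 to 0.46). Bmp3 (-0.76 and -0.55) and Bmp6 (-0.19 and -0.28) were also lower.

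The activin and inhibin subunits went the other way. Inhba, the activin A subunit, was at 478, 575, 1020 and 878 CPM (0.88 and 0.83), Inhbb at 172, 214, 317 and 234 CPM (0.44 and 0.57) and Inha, the inhibin alpha subunit, at 2239, 2193, 3477 and 2814 CPM (0.33 and 0.66). All 3 were higher in both AMH libraries, where Pcsk6 was lower. Of 6617 genes passing the filter, 2241 were higher in AMH than in control and 2696 in doxorubicin+AMH than in doxorubicin. The cluster led by Inhbb and Inhba held 311, 253, 494 and 425 cells, and the part of cluster sizes in these class values was not tested. Within the Cntn4 and Cdh12 cluster, Inhba was at 46.9, 53.3, 145 and 180 CPM, so there too the lower Pcsk6 and the higher Inhba stood in the same libraries, while Inha was nearly level (0.03 and 0.25) and Inhbb went the other way (-0.31 and -0.55). The order of Inhbb in the whole class was therefore not that of this cluster.

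Among 30 other convertase substrates 15 passed, with none past 2-fold in AMH / control (0.544% of all genes lower, 0.136% higher) and 1 lower in doxorubicin+AMH / doxorubicin (0.71% lower, 0.106% higher), and with medians of -0.06 and 0.01. The 1 was Itga6, the laminin receptor chain integrin alpha 6, at 139, 125, 53.4 and 73.2 CPM (-0.93 and -1.23). In the control 7427 of its 9081 UMIs came from the Cntn4 and Cdh12 cluster, where it was at 500, 441, 346 and 410 CPM and its ratios were -0.29 and -0.35, smaller than those of Pcsk6. Adamts5, a versican- and aggrecan-cutting protease, gave -0.75 and -0.47, and Pdgfa, a growth factor, -0.18 and -0.95. The 3 that were higher in both contrasts by most were Lrp1, an endocytic receptor (0.38 and 0.38), Cdh2, N-cadherin (0.28 and 0.19), and Adamts1, a protease of the ovulatory follicle (0.25 and 0.13).

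**Figure D5:**
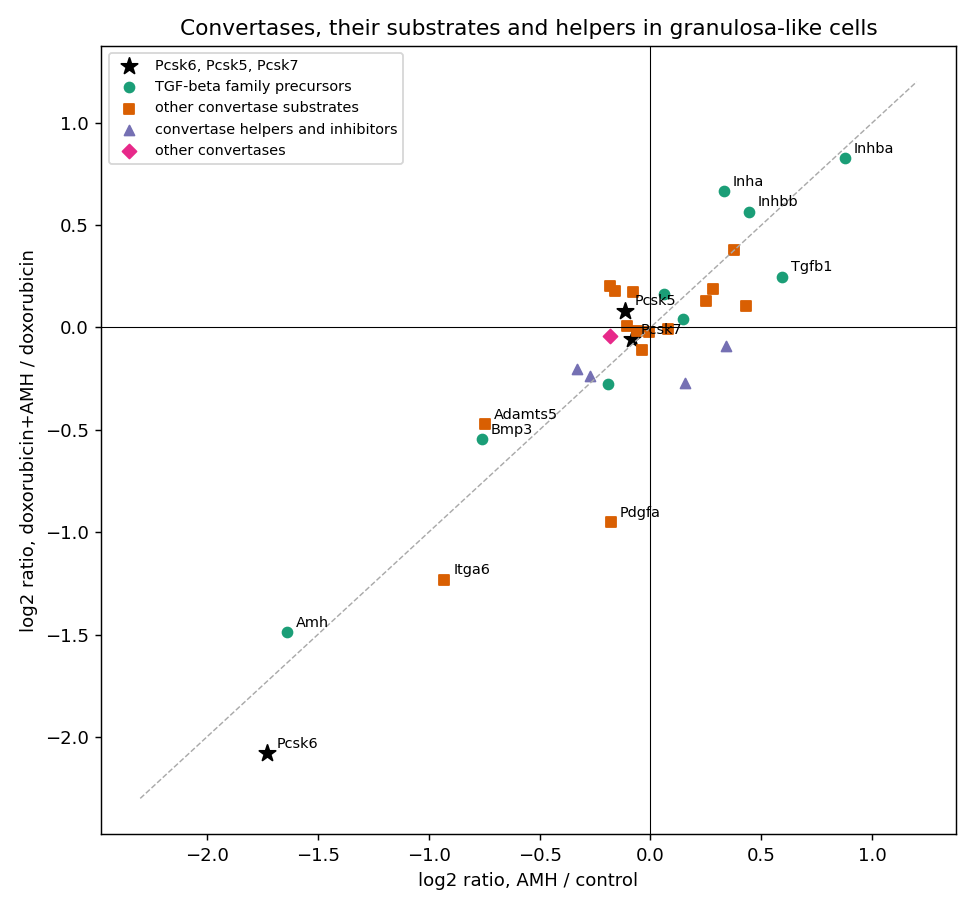
Log2 ratios in granulosa-like cells for AMH / control (x axis) and doxorubicin+AMH / doxorubicin (y axis), which share no library; points are the convertase, substrate and helper genes whose mean reached 20 CPM, shapes mark the lists, and the dashed line marks equal ratios. Pcsk6 (-1.73, -2.08) and Amh (-1.64, -1.49) lie lowest and Inhba (0.88, 0.83) highest.

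In theca-like cells 5 TGF-beta family precursors passed the filter and 2 were at least 2-fold lower in both AMH contrasts, against 3.77% of all genes lower and 2.7% higher in AMH / control and 3.61% lower and 2.65% higher in doxorubicin+AMH / doxorubicin. The 2, named after their values were seen, were Bmp6 (105 CPM in control and 11.2 in AMH, -3.22, and 81.1 in doxorubicin and 12.2 in doxorubicin+AMH, -2.74) and Inha (-1.07 and -1.23). No convertase gene passed 2-fold there. The shift between theca-like clusters described above applies to these values as well. In stroma-like cells 2 of 8 precursors passing were at least 2-fold higher in AMH / control and none lower, against 7 higher and 6 lower of 6674 genes. In mural smooth muscle-like cells 2 of 6 were higher and none lower, against 11 and 12 of 6596 genes. For doxorubicin+AMH / doxorubicin none passed 2-fold in either class, against 0 and 5 genes higher and 15 and 19 lower.

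Over 24 points, the 4 libraries of the 6 classes with 50 or more cells in every library, the genes whose log2(CPM + 5) followed a convertase most closely were ranked among 7159 genes. For Pcsk6 these were Heph, a ferroxidase, Rbm26, Nvl, Gprasp1 and Carnmt1, with Pearson r from 0.90 to 0.91. For Pcsk5 they were Rbms2 and Zbtb41 (0.97 to 0.98), for Furin Rap1a, Parp12 and Tapbp (0.97), and for Pcsk7 Tprgl, Rgs5 and Mcam (0.83 to 0.84). The points share libraries and the lymphatic endothelial-like class is not among them. Heph in granulosa-like cells was at 186, 147, 124 and 152 CPM, so its difference with AMH was much smaller than that of Pcsk6.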

How the data were processed

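Single-cell transcriptomes of 4 pooled mouse ovary suspensions (10x Chromium 3′ chemistry) were analysed. The authors deposited raw UMI counts per gene and cell, made with Cell Ranger 7.0.0 per the file headers. R 4.2.0, Seurat 4.1.0 and the build mm10 are named in the submitters' processing notes. Whether intronic or antisense reads were counted is not given in the sources used here, and either could change a gene's count.

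From the deposited counts, cells under 1000 UMIs or above 20% mitochondrial UMIs were dropped. In each library the cells with the highest doublet scores (0.8% per 1000 cells, 408 to 719 cells) were removed. The 4 libraries were clustered together with scanpy 1.11.5 and leidenalg 0.10.2 (2000 variable genes, 30 principal components, 20 neighbours, resolution 1) on Python 3.11.15, and clusters were named by markers. Counts were summed per class and library. Intervals, computed with scipy 1.17.1, are exact Poisson for CPM, exact conditional binomial for log2 ratios and Clopper-Pearson for shares, all at 95% and for counting error only. A gene was called at 2-fold where its mean over the libraries was at least 20 CPM. The ratio script was tested on simulated data.

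Named were the 4 members. Of each list, the 3 highest and 3 lowest genes by the AMH ratio closer to 0 were named, with any gene 2-fold apart in both contrasts. The 5 genes most like Pcsk6 and the 3 most like each other member were added. Members and lists were chosen with earlier results of these data known. Protein sequences were not used here, and results on some genes and clusters are not reported here.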

Additional observations from a re-analysis of the deposited data

Results flagged for a closer look

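Pcsk5 drew attention because the same contrast had opposite signs in the presence and absence of the other agent. With 1 library per group these differences were not tested. In theca-like cells AMH against no AMH gave a log2 ratio of -0.27 without doxorubicin and 0.88 with it. Doxorubicin against no doxorubicin gave -0.61 without AMH and 0.55 with it. As described above, that class was made of different clusters with and without AMH, and a per-cell marker gate gave 0.0023 for AMH / control. In its Cyp17a1 and Sct cluster doxorubicin+AMH / AMH lay between 0.13 and 0.36 under other settings. In stroma-like cells the doxorubicin ratio was -0.15 without AMH and 0.10 with it. In granulosa-like cells the values were -0.11 and 0.081 for AMH, and -0.12 and 0.069 for doxorubicin, all small. The signs for AMH there turned under other settings. Each 95% counting interval excluded 0, and the spread between animals was not measured.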

How the results depend on the processing

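Log2 ratios below are in granulosa-like cells unless said. No paired analysis was possible because each group had 1 library and the labels give no shared replicate numbers, and for the same reason no library could be left out. Over all alternatives 635 of 764 values stayed within counting error of the value reported or, for counts of genes, within 1.5-fold of it, 117 moved further and 12 reversed in sign, counted only for ratios whose reported interval excluded 0. A further 53 changed sign from a ratio whose interval held 0, and 14 of them moved outside it, among them Pcsk6 doxorubicin+AMH / doxorubicin in theca-like cells (0.43 with clusters weighted as in control) and, with the marker gate in mural smooth muscle-like cells, Pcsk7 doxorubicin / control (0.28) and Pcsk5 doxorubicin+AMH / doxorubicin (0.60). Pcsk6 was lower in both AMH contrasts under every alternative run, from -1.74 to -1.30 and from -2.10 to -1.78 under the planned ones. With each cell weighted equally its ratios were -1.30 and -1.89 (Pcsk5 0.048, reversed, and 0.20, Furin AMH / control -0.065, and Pcsk6 doxorubicin / control in theca-like cells -0.19, reversed). With a pseudocount of 5 CPM they were -1.51 and -1.78, and with cells taken by a marker gate -1.51 and -1.96. That gate gave Pcsk5 0.16 for doxorubicin+AMH / doxorubicin, 0.0023 for AMH / control in theca-like cells and -0.37 for doxorubicin / control in mural smooth muscle-like cells, both reversed. Doublets left in gave Pcsk5 0.16 for doxorubicin+AMH / doxorubicin, median-of-ratios scaling -0.043 for AMH / control, and a mitochondrial limit of 10% 0.024, reversed, for AMH / control in the Cyp17a1 and Sct cluster. Chosen after seeing the data were the next 3 settings and the removal of clusters of 1 library. Without the Cntn4 and Cdh12 cluster Pcsk6 was at -0.74 and -0.88, and at 0.011, reversed, for doxorubicin+AMH / AMH, and Pcsk5 at -0.19 and -0.034, the latter reversed. Without that cluster and the clusters of 1 library together, Pcsk6 was at -0.74 and -0.21, and at 0.015, reversed, for doxorubicin+AMH / AMH, and Pcsk5 at -0.19 and -0.023, the latter reversed. With clusters weighted as in control, Pcsk6 was at -0.96 and -1.22, Pcsk5 AMH / control at -0.19, and doxorubicin+AMH / doxorubicin at 0.13, reversed, for Furin and 0.090 for Pcsk7, whose reported interval includes 0. The same weights gave 0.16, reversed, for Furin AMH / control in theca-like and -0.059, reversed, for Pcsk5 doxorubicin / control in mural smooth muscle-like cells. The cause of these moves was not tested.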
